A study of Mus musculus with 48 samples.

Results

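Serum immediate early genes are genes whose transcription starts within minutes when resting or starved cells receive serum, without new protein synthesis, and stops again soon after. Here 10 of them, *Egr1*, *Egr2*, *Egr3*, *Ier2*, *Ier3*, *Srf*, *Nr4a1*, *Dusp1*, *Maff* and *Noct*, were examined in ATAC-seq data from P19 cells, and all peaks within 50 kb of a RefSeq transcription start site (TSS) of these genes in mm10 were taken. After peaks of the 4 lists that overlap were merged, this gave 139 regions of 287329 in all, and the 10 genes are among 26180 RefSeq genes. P19 is a mouse embryonic teratoma line, grown in DMEM with fetal calf serum. ATAC-seq measures where the transposase Tn5 can reach the DNA. All groups were unmodified P19 cells, with 12 labelled libraries and 2 biological replicates per state, and the files give 1 peak list per state in which the authors merged all libraries.

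The SB-431542 cells were held overnight in 10 µM SB-431542, which blocks signalling from the NODAL and Activin type I receptors, washed, and then kept for 1 h in full medium with fresh inhibitor, although their time label reads 0 h. The 1 h Activin cells had the same overnight inhibitor and wash and were then given 20 ng/ml Activin in full medium for 1 h, and the 8 h Activin cells likewise for 8 h. Untreated cells had no inhibitor and no Activin, and their pathway is driven by NODAL and GDF3 of their own making. When their medium was last changed is not given in the sources used here. The SB-431542 and 1 h Activin lists, called early here, were both taken 1 h after a wash and fresh serum-containing medium. The 8 h Activin and untreated lists, called late, have no such step at 1 h in the stated protocol. Where 4 values stand together without names, they follow the order SB-431542, 1 h Activin, 8 h Activin, untreated. The comparison asks whether the early lists differ from the late ones near these genes. The early lists differ from each other in Activin, and they share the recent serum step, the short time since overnight receptor inhibition and a greater depth. The late lists share long signalling, from added Activin or from the cells' own ligands. These features cannot be told apart with 4 lists.

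In the best known route, serum activates MAP kinases and changes actin dynamics, which act on the transcription factor SRF through its ETS-domain partners and through the actin-regulated MRTF coactivators. SRF binds the CArG box, and the promoters of many immediate early genes also hold sites for ETS factors and for CREB, which binds the cAMP response element (CRE). The proteins made include transcription factors of the EGR, AP-1 and NR4A families and phosphatases that shut the signal off.

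RefSeq promoters, from 250 bases before to 50 after a TSS on GRCm38.p6, were found for 7 of the 10 genes, and *Egr1*, *Egr3* and *Ier2* had no entry. The CArG box was present in the promoters of *Srf* and *Egr2*, 2 of 7 genes, and in 1.81% of all 27025 genes with an entry. The CRE, TGACGTCA, was present at *Dusp1* and *Maff*, and in 2.03% of all genes, and the ETS letters CCGGAA at *Egr2*, *Maff*, *Nr4a1* and *Srf*, and in 16.7% of all genes. The EGR letters GCGNGGGCG were present at *Maff*, *Nr4a1* and *Srf* and in 6.27% of all genes, and the AP-1 letters TGANTCA at none of the 7 and in 8.97% of all. Both strands were searched, and a match is a description of letters only. The sequences below show where these motifs lie in the promoters of *Srf* (chr17:46556163-46556412, minus strand), *Dusp1* (chr17:26508473-26508722, minus strand) and *Maff* (chr15:79347270-79347519, plus strand), each as the 250 bases before a TSS written 5′ to 3′ on the strand of the gene, and in 30 bases around each of the CArG boxes of *Egr2* (chr10:67537484-67537513 and chr10:67537787-67537816, plus strand). Capitals mark the CArG boxes, the CRE, the EGR and the ETS letters. The ETS match of *Maff* lies in the 50 bases after the TSS, which are not shown.
Srf promoter: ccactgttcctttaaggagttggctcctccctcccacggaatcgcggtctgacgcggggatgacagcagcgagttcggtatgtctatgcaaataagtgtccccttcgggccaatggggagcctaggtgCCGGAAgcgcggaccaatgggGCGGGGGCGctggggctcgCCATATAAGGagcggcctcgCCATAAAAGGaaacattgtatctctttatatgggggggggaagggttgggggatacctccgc
Dusp1 promoter: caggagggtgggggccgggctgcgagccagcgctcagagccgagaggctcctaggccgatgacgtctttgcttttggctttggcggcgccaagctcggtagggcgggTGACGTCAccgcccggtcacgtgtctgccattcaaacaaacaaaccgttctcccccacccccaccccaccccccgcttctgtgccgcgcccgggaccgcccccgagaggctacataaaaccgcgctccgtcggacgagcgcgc
Maff promoter: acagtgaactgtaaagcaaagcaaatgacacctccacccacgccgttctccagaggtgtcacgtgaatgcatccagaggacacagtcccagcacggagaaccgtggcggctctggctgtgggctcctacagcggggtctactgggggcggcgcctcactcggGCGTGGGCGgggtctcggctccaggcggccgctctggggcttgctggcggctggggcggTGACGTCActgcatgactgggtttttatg
Egr2 CArG box, first: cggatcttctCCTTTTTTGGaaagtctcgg
Egr2 CArG box, second: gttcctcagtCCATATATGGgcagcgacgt

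The promoters of all 10 genes were accessible in every state. A region overlapping the stretch from 1000 bp upstream to 100 bp downstream of the TSS had a peak in each of the 4 lists at 10 of 10 genes, whereas 72.5% of 21000 protein-coding genes had one. The authors' fold enrichment, the mean read pileup in a peak divided by the background around it, lay between 2.38 and 4.01 at the 10 promoters, and the lowest −log10 q, the score MACS2 gives a peak, was 34.2. To compare lists, the 162505 regions with a peak in every list, called shared, were ranked in each list on this ratio, and a region is given by its percentile. With 1 merged list per state there is no spread between replicates and no test between states, and the yardstick used is the difference inside a pair of early or of late lists. It is a difference between single lists, whereas the early minus late difference is taken between the means of the pairs, and averaging narrows the latter. The 2 are therefore not on equal terms.

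By fold enrichment, the clearest early promoters were those of *Dusp1*, the phosphatase that switches off MAP kinases, and of *Srf* itself. The *Dusp1* promoter region (chr17:26507814-26509552) had fold enrichments of 3.74 and 3.46 in the early lists, and of 3.02 and 3.01 in the late ones. This placed it at percentiles 74.0 and 74.2 in the early lists and 61.6 and 61.5 in the late lists, so the members of each pair lay within 0.16 points of each other and the pairs 12.5 points apart. Of the 16240 shared promoter regions, 682 had a larger early minus late difference. The *Srf* promoter region (chr17:46555034-46556897), which spans the CArG boxes shown above, had values of 3.39 and 3.42 in the early lists, against 2.98 and 2.90 in the late ones. Its early minus late difference was 11.0 points, larger than the 5.77 points between the early lists and the 1.93 points between the late ones.

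The promoters of *Egr1*, *Nr4a1* and *Ier3* also had both early lists above both late ones, by smaller distances. *Egr1*, a zinc-finger transcription factor and a classical serum response gene, had promoter values of 3.93 and 3.59 in the early lists and 3.44 in both late lists. At *Nr4a1*, an orphan nuclear receptor, the values were 3.98 and 3.99 in the early lists and 3.61 and 3.58 in the late lists (chr15:101266068-101268086). *Ier3*, a stress-induced modulator of cell survival, had 3.37 and 3.13 in the early lists, against 2.95 and 3.05. The *Ier3* region (chr17:35821177-35824800) also covers the promoter of the neighbouring gene *Flot1*, so its values cannot be assigned to *Ier3* alone. The early minus late differences were 5.84 points for *Egr1*, 6.21 for *Nr4a1* and 6.38 for *Ier3*.

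For the other promoters the early and late lists overlapped or the order was turned. *Egr2*, a zinc-finger factor of the hindbrain and Schwann cells, stood at 2.55, 2.68, 2.55 and 2.48, so that 1 h Activin alone was high. The related *Egr3* stood at 2.89, 2.92, 2.96 and 2.82 in the same order, in a region that ends 227 bp upstream of its nearest TSS. *Ier2*, which encodes a small nuclear protein, stood at 2.78, 2.69, 2.77 and 2.38, so that the untreated list alone was low. Its region held 2, 3, 3 and 2 peaks in that order, and the highest of each list is given. *Maff*, a small MAF factor that has no transactivation domain, was the promoter with both early lists below both late ones, at 3.71 and 3.59 against 3.84 and 4.01, an early minus late difference of -4.16 points. The *Maff* region held 1 peak in each early list and 2 in each late list, and the late values are those of the higher peak. With a width-weighted mean over the peaks the difference was -0.081 points. *Noct*, which encodes nocturnin, a phosphatase with a daily rhythm in many tissues, stood at 3.12, 3.24, 3.51 and 3.24, a difference of -3.44 points.

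By percentile, 5 of the 10 promoters had both early lists above both late ones and 1 had both below. This share has to be read against the background, where 42.4% of all 16240 shared promoter regions were above and 9.67% below. A count of 5 in 10 is near that background. The early minus late difference was over 10 points in both lists of a pair for *Dusp1* alone, compared with 2.61% of all promoter regions.

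**Figure D1:**
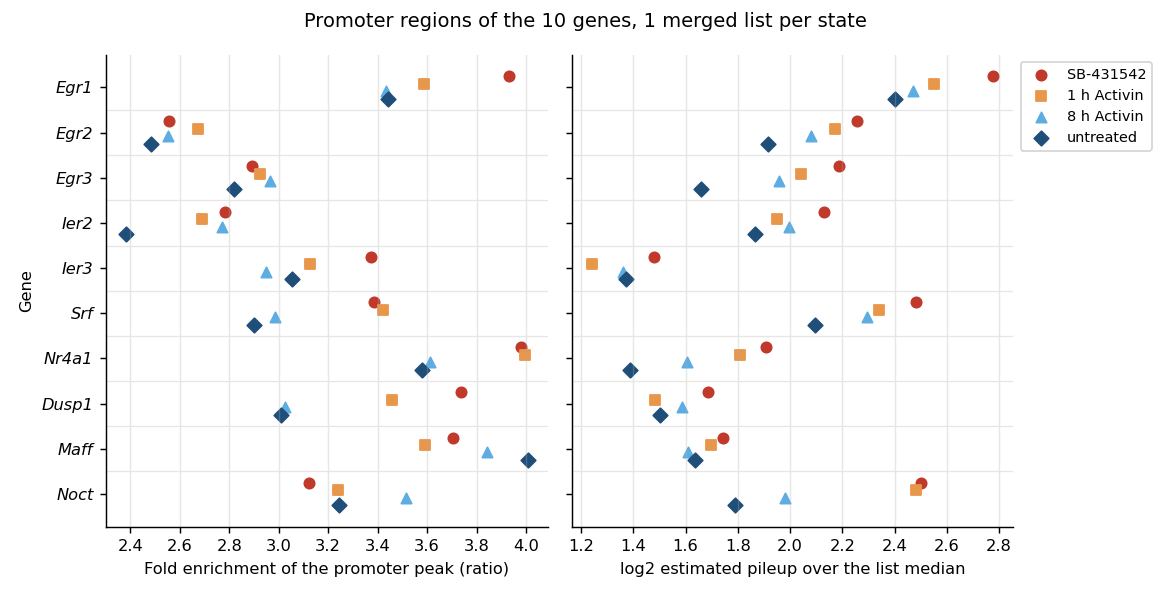
Promoter regions of the 10 genes, with the fold enrichment of the peak (ratio, left) and the log2 of the estimated pileup over its median in the shared regions of that list (right), 1 point per list and no error bars since each list merges all libraries. On the left *Dusp1* and *Srf* have the early lists to the right and *Maff* to the left, and on the right *Noct* has the widest separation, with both early lists above 2.4 and both late lists below 2.0.

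Fold enrichment divides by the local background, which was itself higher in the early lists around several of these genes. From the fold enrichment and the −log10 p of a peak the background and the pileup, in reads covering a base, can be estimated under the Poisson model of MACS2. This assumes that the model holds for values averaged over a peak. MACS2 was run with no control, so the background comes from ATAC-seq reads of the same list and is not independent of accessibility nearby. The lowest background of each list, a measure of depth, was 1.17 times as high with SB-431542 as in untreated cells, and the median ratio at all shared promoters was 1.28. At the *Noct* promoter the estimated background was 173 and 141 in the early lists and 83.1 and 85.4 in the late lists, and the SB-431542 value was 2.03 times the untreated one, a ratio that 12 of the 16240 promoter regions exceeded. *Egr3* followed with 1.68, and *Dusp1* had the lowest ratio, 1.09.

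The pileup was therefore compared directly, as its log2 over the median of the shared regions of the same list, a measure added after the data had been seen. On this scale *Noct* had the largest early minus late difference of the 10 promoters. Its promoter region (chr3:51222928-51225565) had an estimated pileup of 540 and 456 reads in the early lists and of 292 and 277 in the late ones. The scaled values were 2.50 and 2.48 in the early lists and 1.98 and 1.79 in the late lists, a difference of 0.61, and 121 of the 16240 promoter regions had a larger one. *Nr4a1* and *Egr3* were next, with differences of 0.36 and 0.31, and *Egr1*, *Egr2* and *Srf* had 0.23, 0.22 and 0.22. The promoters that differ most by fold enrichment and by pileup are thus not the same: *Dusp1* had 0.04, and *Ier3* -0.01.

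On the pileup scale 7 of the 10 promoters had both early lists above both late ones and none had both below, against 41% and 7.41% of all shared promoter regions. The 7 were *Egr1*, *Egr2*, *Egr3*, *Srf*, *Nr4a1*, *Maff* and *Noct*. The median difference over the 10 was 0.22, and over all promoter regions 0.10. The SB-431542 list was the highest of the 4 at all 10 promoters, compared with 63.1% of all promoter regions, and the untreated list was the lowest at 7, compared with 63.1%. The lists at the top and the bottom of this order also differ within a pair, with a median 1 h Activin minus SB-431542 difference of -0.15 and a median 8 h Activin minus untreated difference of 0.15 at the 10 promoters. Over all shared promoter regions these medians were near, at -0.11 and 0.12.

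Among the regions near the 10 genes found in both early lists and neither late list, the one with the highest −log10 q lay upstream of *Noct*. It is intergenic, 3.23 kb upstream of the TSS (chr3:51220836-51221221). Without late values it has no early minus late difference and cannot be ranked against the shared regions. Its peaks were enriched 3.45-fold with SB-431542 and 3.50-fold at 1 h Activin, and the −log10 q was 112 and 93.4. By the lower of its scores it ranked 2nd among the 18665 regions of the genome found in both early lists only, for which the median of that score was 3.28. In the late lists, peaks with an estimated background within 20% of that at the *Noct* promoter were called down to enrichments of 1.33-fold in the 8 h Activin list and 1.31-fold in the untreated list. These are the lowest single peaks, and the 1st percentile was 1.53-fold and 1.49-fold. No region found in both late lists only reached such scores, the highest value of the lower score being 47.7. There were 7616 such late regions and the late lists are shallower, so the highest scores of these classes are not on equal terms.

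The central 300 bases of the *Noct* upstream region (chr3:51220878-51221177, plus strand) and of an early region at *Maff* (chr15:79360052-79360351, plus strand) are shown since, near the 10 genes, they are the strongest regions found in the early lists only. Neither held a CArG box, CRE, AP-1, EGR or ETS letters. The capitals mark GGAATG or its reverse complement CATTCC, the core letters that TEAD factors recognise, which were searched after the sequences had been seen and occur in the central 300 bases of 18.5% of all regions. Of the 128 regions near the genes other than *Egr1*, 15.6% held them. The CArG box was in 0 of these 128 and in 1.71% of all regions. The shares for AP-1 were 14.1% and 12%, for ETS 8.59% and 3.75%, for EGR 3.12% and 0.684%, and for the CRE 2.34% and 0.255%.
Noct -3.2 kb: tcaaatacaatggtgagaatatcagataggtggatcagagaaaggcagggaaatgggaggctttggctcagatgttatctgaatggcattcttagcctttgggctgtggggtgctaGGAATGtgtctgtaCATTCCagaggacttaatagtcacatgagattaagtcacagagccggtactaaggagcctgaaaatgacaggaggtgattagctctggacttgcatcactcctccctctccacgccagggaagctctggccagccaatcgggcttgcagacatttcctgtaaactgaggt
Maff +11.6 kb: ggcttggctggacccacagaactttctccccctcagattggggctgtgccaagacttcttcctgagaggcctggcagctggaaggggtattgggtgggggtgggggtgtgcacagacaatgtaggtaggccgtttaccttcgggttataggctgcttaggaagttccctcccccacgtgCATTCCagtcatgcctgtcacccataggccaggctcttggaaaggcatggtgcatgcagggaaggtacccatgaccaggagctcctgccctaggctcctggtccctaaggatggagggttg

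Of the 16 regions around *Noct*, 1 other had a peak in the early lists only, 23.2 kb downstream in an intron of *Noct*, and it was weak, with fold enrichments of 1.69 and 1.66 and −log10 q of 2.19 and 1.86. A peak in every list was found in 11 regions. By percentile 2 of these had both early lists above both late ones and 5 had both below, with a median difference of -3.44 points. Of all shared regions 26% were above and 24.2% below, and counts in 11 regions are too small to set apart from such shares. By scaled log2 pileup 5 were above and 3 below, with a median of 0.10, compared with 25.8% and 22.8% of all shared regions. A weak intergenic region 13.6 kb upstream had fold enrichments of 2.03 and 2.02 in the early lists and 1.73 and 1.51 in the late ones, a difference of 23.0 points. An intronic region 3.63 kb downstream of the TSS went the other way, at 1.81 and 1.83 against 1.97 and 2.47, a difference of -19.6 points. Its estimated pileup was 198, 160, 127 and 166 in the order of the lists, and by scaled log2 pileup the early lists were the higher, by 0.10 on average.

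**Figure D2:**
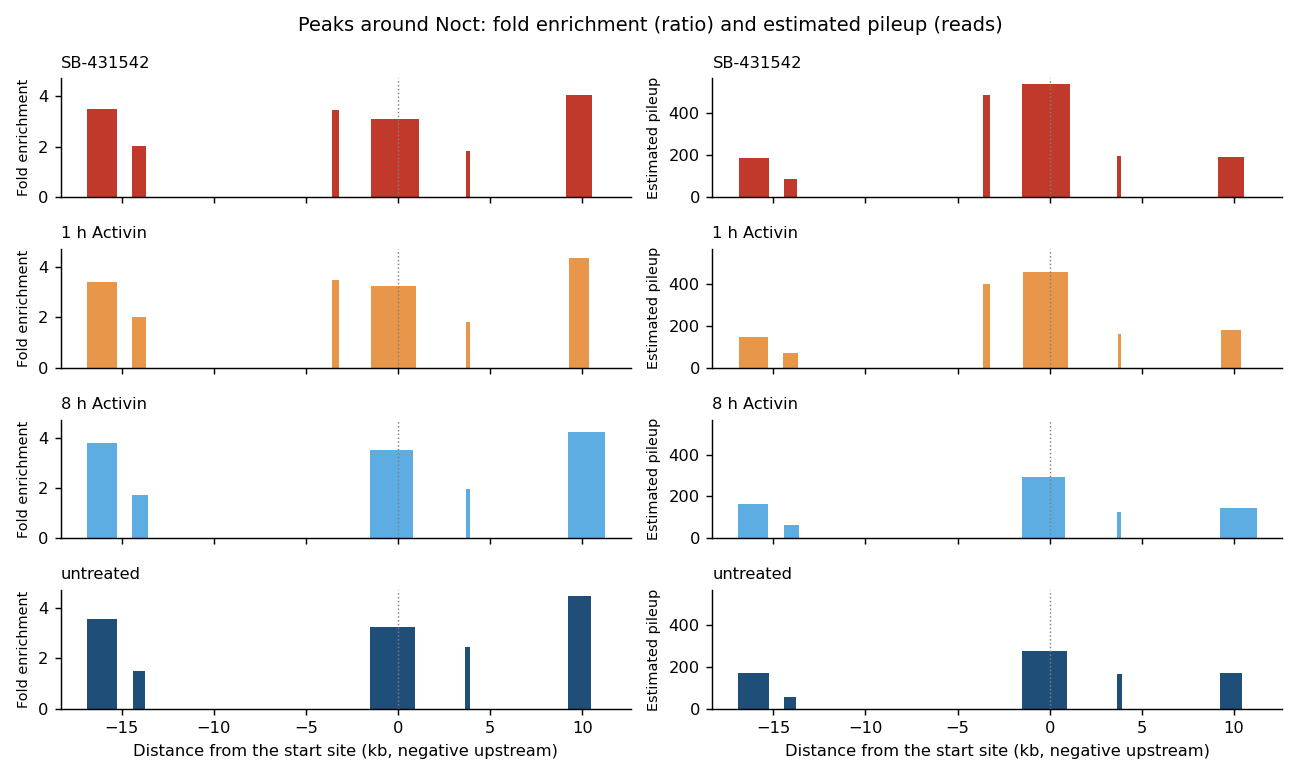
Peaks within 20 kb of the *Noct* TSS in each of the 4 lists, drawn to their extent against the distance from the TSS (kb) with the authors' fold enrichment (ratio, left) or the estimated pileup (reads, right) as height. The narrow peak 3.23 kb upstream is in the SB-431542 and 1 h Activin lists alone, and the promoter peak is of like fold enrichment in all 4 lists, 3.12 to 3.51, while its pileup runs from 540 to 277.

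*Maff* had early and late regions side by side. The early region shown above lies 11.6 kb downstream of the *Maff* TSS (chr15:79359972-79360432), is intergenic, and had early fold enrichments of 3.10 and 2.96, with −log10 q of 23.4 and 17.3 and no peak in the late lists. It ranked 527th of the 18665 regions found in both early lists only. In the late lists, peaks at a like background were called down to 1.49-fold and 1.48-fold, with a 1st percentile of 1.61-fold and 1.59-fold. An intergenic region 9.80 kb upstream was higher in the early lists, at 3.22 and 2.71 against 2.36 and 2.32, a difference of 21.6 points, and a region 38.2 kb upstream in an intron of *Pla2g6* was lower, at 2.09 and 1.80 against 2.81 and 2.65, a difference of -34.5 points. The latter pair of regions lies nearer to *Pla2g6*, the neighbouring phospholipase gene, than to *Maff*.

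Among the shared regions, the largest early minus late difference near any of the 10 genes was in an intron of *Bin3*, 28.6 kb downstream of *Egr3*. The fold enrichments were 6.43 and 5.88 in the early lists and 3.64 and 2.56 in the late ones, and the −log10 q 91.5, 72.2, 24.0 and 10.1. It stood at percentiles 96.6 and 96.2 in the early lists and 74.0 and 47.8 in the late lists, a difference of 35.5 points, and its scaled log2 pileup differed by 0.97. The late lists differed from each other by more than the early ones here, and untreated cells were lowest. Another region 19.9 kb upstream of *Egr3*, in an intron of *Pebp4*, had a difference of 20.8 points, with 3.01 and 2.60 in the early lists and 2.16 and 2.38 in the late ones.

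At *Egr1* the largest difference was at a weak region 14.2 kb upstream, over an exon of *Reep2*, with fold enrichments of 2.23 and 2.18 in the early lists and 1.66 and 1.60 in the late ones. The difference was 33.8 points, and the late percentiles, 1.73 and 0.47, lie at the bottom of the shared regions, where small steps in fold enrichment move the percentile a long way. A region 36.2 kb downstream was lower in the early lists, at 2.07 and 1.97 against 2.23 and 2.28, a difference of -11.2 points. A region 27.2 kb upstream, in an intron of *Kdm3b*, had a peak in the late lists alone with a highest −log10 q of 6.73. *Egr2* had 9 regions and 2 of them were shared, its promoter and a region over *Ado* 9.90 kb downstream with a difference of 2.93 points, and a region 41.5 kb upstream was found in the early lists alone with a highest −log10 q of 5.29.

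*Nr4a1*, with 21 regions the most of the 10 genes, had 18 shared regions, of which by percentile 9 had both early lists above both late ones and none had both below, whereas of all shared regions 26% were above and 24.2% below. By scaled log2 pileup this was no longer one-sided, with 4 above, 3 below and a median of -0.04, against 25.8% and 22.8% of all shared regions. The largest difference, 24.4 points, was 9.91 kb downstream in an intergenic region nearer to *Atg101*, with fold enrichments of 2.19 and 1.93 against 1.69 and 1.63. The lowest, -3.41 points, was 35.5 kb upstream in an intron of *Grasp*, where the lists overlapped. By percentile, *Ier2* had 8 of its 18 shared regions above and 4 below, from 20.4 points at a region 34.8 kb upstream in an intron of *Trmt1* to -12.6 points at the *Trmt1* promoter. *Srf* had 4 of its 10 shared regions above and none below, led by its promoter. At its lowest region, 38.4 kb upstream in an intron of *Ptk7*, the 8 h Activin list stood alone with 3.05 against 1.95, 2.14 and 1.67 in the others. *Ier3* had 4 of its 8 shared regions above and none below, from 8.81 points at the *Ppp1r18* promoter 43.7 kb downstream to -2.43 points at the *Nrm* promoter 39.0 kb downstream. By scaled log2 pileup *Ier2* had 6 above and 2 below, *Srf* 2 above and none below, and *Ier3* 3 above and none below. The gene itself was the nearest for 6 of the 21 regions of *Nr4a1*, 11 of 20 of *Ier2*, 3 of 15 of *Srf* and 1 of 12 of *Ier3*. Promoters of other genes underlie 4, 3, 1 and 5 of them. By percentile, 42.4% of all shared promoter regions were above and 9.67% below, and 28.8% and 21.6% of shared regions within 50 kb of any TSS.

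*Dusp1* had opposite differences at neighbouring regions. Whereas its promoter was higher in the early lists, an intergenic region 2.80 kb upstream (chr17:26511276-26511683) had fold enrichments of 1.62, 2.38, 3.01 and 2.75 in the order of the lists. Its percentiles were 1.45, 45.8, 61.4 and 54.2, so most of the difference of -34.2 points lies between SB-431542 and the 3 other lists, and 1 h Activin stood nearer to the late lists. The scaled log2 pileup was also lower in the early lists, by 0.77 on average. In the reference, 35.0% of this region is marked as repeat sequence, and the part that repeats play in its values was not tested. The median over the 8 shared regions of *Dusp1* was -3.90 points, so that by percentile *Dusp1* and *Noct* were the members with a median below 0, and the 8 other members had medians from 0.42 for *Maff* to 5.51 for *Ier2*. That of *Egr2* rests on 2 regions. The share of all genes with a median above 0 is not given here, so these medians describe single genes only. Over all shared regions within 50 kb of any TSS the median was 0.56 points. The members with a median below 0 by scaled log2 pileup were *Dusp1*, at -0.10, and *Nr4a1*, at -0.04, while *Noct* stood at 0.10.

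**Figure D3:**
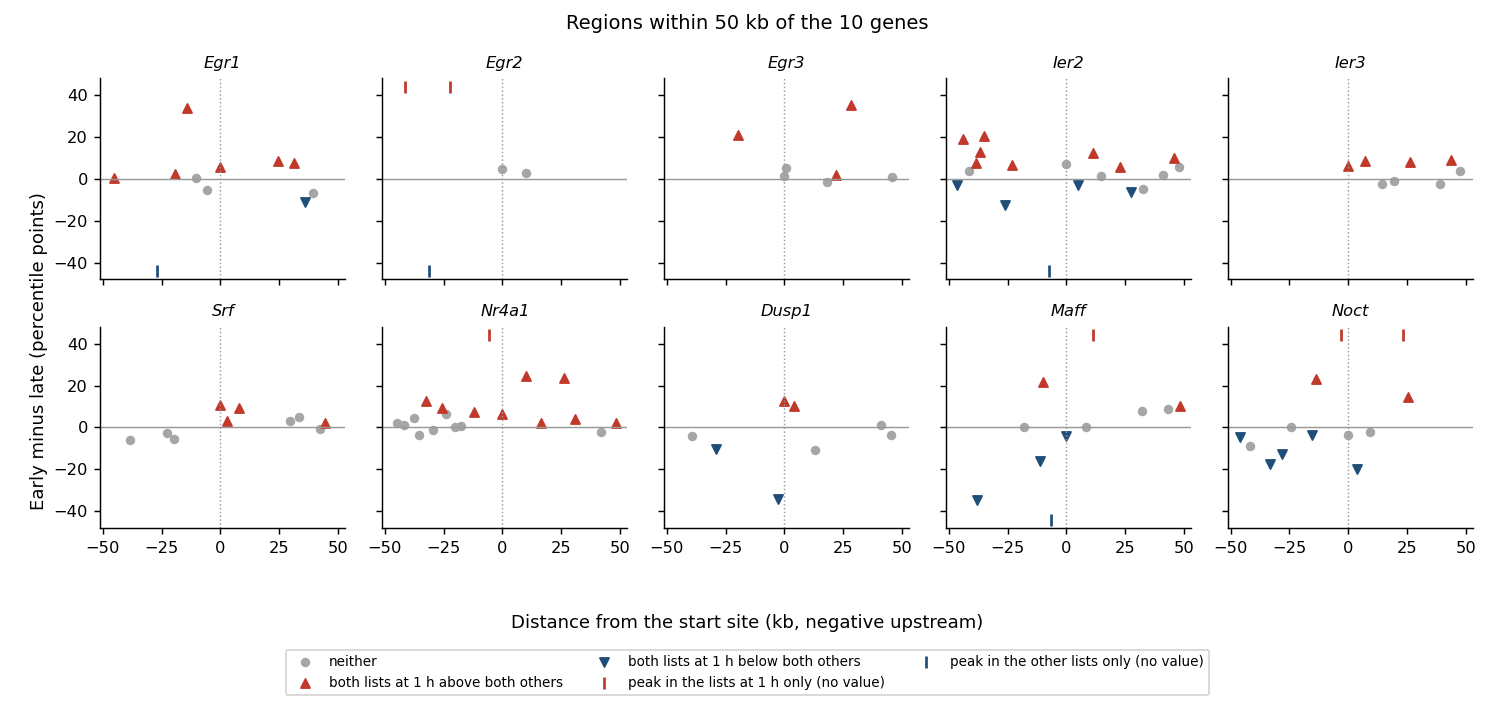
Early minus late difference (percentile points of fold enrichment) of the 101 shared regions against their distance from the TSS of each of the 10 genes (kb), with red and blue triangles where both early lists lie above or below both late lists and ticks at the edge for regions found in 1 pair of lists only. Triangles of both colours stand near *Dusp1*, *Maff*, *Noct*, *Ier2* and *Egr1*, whereas *Nr4a1*, *Srf*, *Ier3* and *Egr3* have red ones only.

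Over all 139 regions, presence by itself did not set the early lists apart. A peak was found in every list in 101 regions, 72.7%, compared with 56.6% of all regions and 61.2% of those within 50 kb of any TSS. Both early lists and neither late list held a peak in 6 regions, 4.32% (95% Wilson interval 1.99% to 9.10%, which covers counting error only), compared with 6.5% of all regions, and both late lists alone in 4 regions, compared with 2.65%. The SB-431542 list alone held a further 10, 7.19% compared with 4.91% of all regions, and it is also the deepest list. The 6 early regions were all nearer to a member than to any other gene, at *Noct*, *Egr2*, *Maff* and *Nr4a1*, and make up 9.38% of the 64 regions for which a member is the nearest gene. The other 75 of the 139 regions lie nearer to another gene, and 17 lie over the promoter of one.

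In the 101 shared regions the early lists were more often above. Both early percentiles lay above both late ones in 40 regions, 39.6%, and below in 15, 14.9%, whereas of all shared regions 26% were above and 24.2% below, and of those within 50 kb of any TSS 28.8% and 21.6%. With a gap of over 10 points, 10 regions were above and 2 below, or 9.90% and 1.98%, compared with 6.87% and 6.69% of all shared regions and 6.54% and 5.55% of those within 50 kb of any TSS. The median early minus late difference was 2.00 points, compared with 0.13 over all shared regions and 0.56 over those within 50 kb of any TSS. Regardless of sign, the median difference between the means of the pairs was 5.51 points, compared with 4.08 points inside the early pair and 4.40 inside the late pair. Over all shared regions these 3 medians were 5.97, 4.82 and 5.90 points. The first is between means of pairs and the others between single lists, so their sizes are not directly comparable. By scaled log2 pileup 33.7% of the 101 regions were above and 11.9% below, compared with 25.8% and 22.8% of all shared regions and 27.7% and 21.4% of those within 50 kb of any TSS. Regions near 1 gene share their surroundings and are not independent, and for the 44 shared regions whose nearest gene is a member the shares were 31.8% above and 20.5% below, and by scaled log2 pileup 38.6% and 13.6%.

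Both early lists are deeper than both late ones. Relative to SB-431542, the lowest background was 93.0%, 79.6% and 85.6% in the 3 other lists, and the lists hold 234758, 233336, 209212 and 220004 peaks in that order. Within 50 kb of the 10 genes there were 129, 121, 117 and 119 peaks with a summed width of 130, 119, 122 and 121 kb, so the SB-431542 list held the most in both. The mean fold enrichment of the peaks of a gene was higher in both early lists than in both late ones at *Egr1*, *Egr3*, *Ier2* and *Nr4a1*, as at *Egr3* with 3.11 and 3.17 against 2.81 and 2.68. It was lower in both at *Egr2*, *Dusp1* and *Noct*, as at *Noct* with 2.60 and 2.64 against 2.89 and 2.91. This mean runs over the peaks that each list called, which at *Noct* numbered 15, 15, 12 and 12. It therefore also depends on how many weak peaks were called. The like share over all genes is not given here, so these values describe single genes only. Promoters of 7 of 8 pluripotency genes had a peak in all 4 lists, with *Dppa4* in 3, and 7 of 10 marker genes of other tissues had none in any list, while *Myod1*, *Gata1* and *Rbfox3* had one in all.

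Other genes of the same response were described by the same counts. Of 42 further immediate early genes, 41 had a promoter region in every list, and 25 of these had both early percentiles above both late ones, 2 below and 14 neither, with a median of 3.81 points. Of all shared promoter regions 42.4% were above and 9.67% below, with a median of 1.39 points. By scaled log2 pileup 32 of the 41 were above and none below, compared with 41% and 7.41% of all shared promoter regions. The highest difference by fold enrichment was at *Ccn2*, a matricellular protein and a known target of SRF and of YAP and TEAD, with fold enrichments of 3.85 and 3.66 in the early lists and 2.76 and 2.52 in the late ones, a difference of 26.2 points, and of 0.99 in scaled log2 pileup. The lowest was at *Nr4a2*, a relative of *Nr4a1*, with -6.59 points, where the 8 h Activin list stood alone with 3.00 against 2.53, 2.49 and 2.55, and by pileup its early lists were the higher by 0.22. The *Nr4a2* region held 2 peaks in the 8 h Activin list, of which the higher is given, and 1 in each other list. These fold enrichments are therefore not on equal terms. Within 50 kb of these 42 genes 41.9% of 382 shared regions were above and 17.8% below, close to the shares of the 10 genes and compared with 26% and 24.2% of all shared regions.

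Of 17 cytoskeletal genes controlled by SRF and MRTF, all had a promoter region in every list, with 8 above, none below and 9 neither, and a median of 2.81 points. A count of 8 in 17 is near the 42.4% of all shared promoter regions. *Cnn2*, an actin-binding calponin, had the highest difference, 18.4 points, at fold enrichments of 2.11 and 2.07 against 1.83 in both late lists, and *Tagln2*, a transgelin, had the lowest, -2.13 points, with 3.25 and 3.13 against 3.39 and 3.26. By scaled log2 pileup 14 of the 17 were above and 1 below, compared with 41% and 7.41% of all shared promoter regions. The CArG box was present in 6 of the 14 promoters with a RefSeq entry, compared with 2 of 32 for the other immediate early genes. *Acta2*, smooth muscle actin, chosen here after its values were seen, had the largest pileup difference of this list, 0.69, with fold enrichments of 4.11 and 4.30 in the early lists and 3.43 and 3.23 in the late ones.

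**Figure D4:**
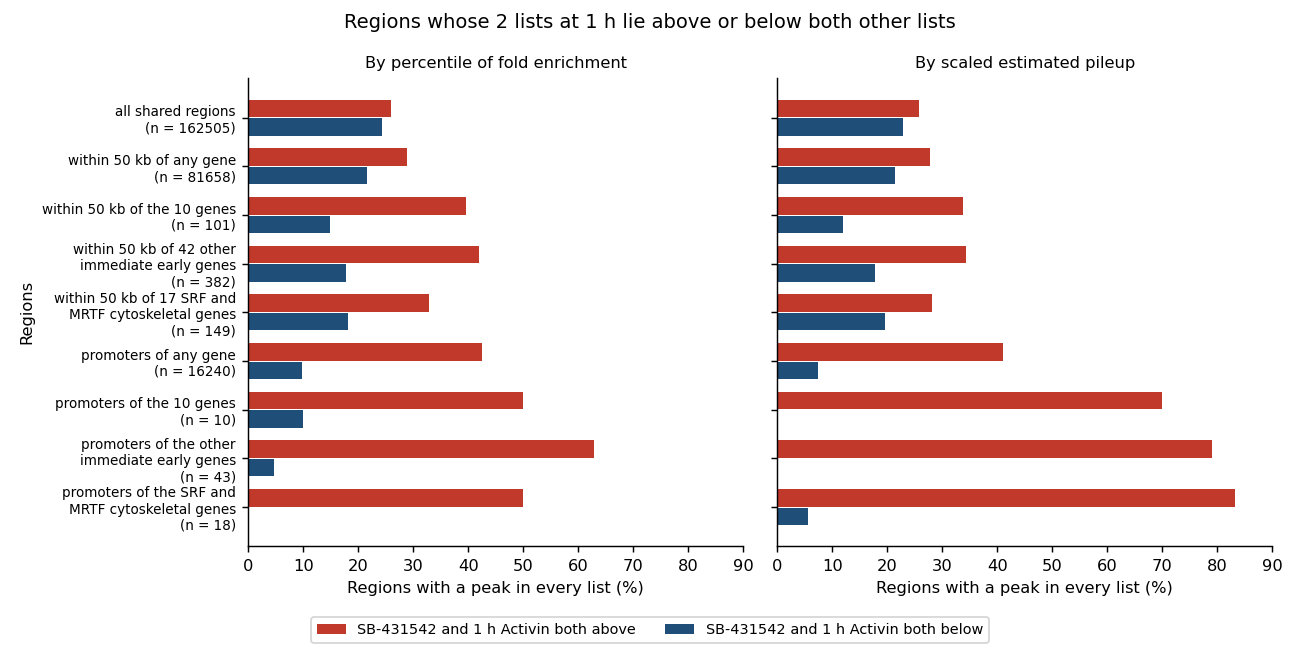
Share of shared regions (%) in which SB-431542 and 1 h Activin both lie above (red) or both below (blue) 8 h Activin and untreated cells, by percentile of fold enrichment (left) and by scaled log2 of the estimated pileup (right), for each group of regions with its number. Within 50 kb the 10 genes stand at 39.6% above and 14.9% below compared with 26% and 24.2% of all shared regions, and on the right the promoters of all 3 gene lists stand at 70% or more above compared with 41% of promoters of any gene.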

How the data were processed

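ATAC-seq of P19 cells in 4 signalling states was analysed from the 1 peak list per state that the authors made from 48 labelled libraries. Per the paper's methods and the submitters' processing notes, the authors used cutadapt 1.9.1 for trimming, BWA 0.6.2 for alignment of the paired reads to mm10, and Picard to merge the libraries of a state and remove duplicates. Broad peaks came from MACS2 2.1.1.20160309, run with no control. The deposited fold enrichment is a ratio of mean pileup to local background, and the deposited −log10 p and the deposited −log10 q score come from the Poisson test of MACS2. Both compare a peak with its surroundings and not a state with another. Read counts and single libraries were not analysed here, so no value has a replicate error.

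Peaks overlapping by 1 bp were merged. Regions were assigned to TSSs of 45756 RefSeq transcripts (GRCm38.p6) within 50 kb, and annotated by their centre. The highest fold enrichment of a region was turned into a percentile among shared regions. Background and pileup were estimated from fold enrichment and −log10 p. The scripts (Python 3, pandas, pysam) were tested on simulated data with planted differences. Named regions of each gene are its promoter, the shared regions with the highest and the lowest early minus late difference, and regions found in 1 pair of lists only with a −log10 q of at least 5. Further regions and *Acta2* were chosen after their values were seen. Of the other gene lists, the genes with the highest and lowest promoter difference are named. The members, the gene lists and the tests were chosen with earlier results of these data known. The sequence of 1 region is not reported here.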

Additional observations from a re-analysis of the deposited data

How the results depend on the processing

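No paired analysis was possible because the authors merged both replicates of each state into 1 list, and for the same reason no replicate could be left out. The median early minus late difference was positive in all 13 other settings (0.50 to 4.97 points) and above that of all shared regions in each, and from 1.62 to 2.55 points when each gene was left out in turn. The share of regions with both early lists above ran from 31.8% to 45.8% over 10 other settings, and that below from 11.2% to 20.8%, on the same side of all regions in every one. For regions nearest to a member the median was 0.91 points, with 31.8% above and 20.5% below. These lie near the main-setting values over all shared regions within 50 kb of any TSS, 0.56 points, 28.8% and 21.6%. Of presence, the share found in the late lists only was 0.84% with a −log10 q of at least 5, and that found in the early lists only was 9.38% for regions nearest to a member, a choice added after the data had been seen. The other 46 of 48 values of presence stayed inside their interval.

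Single promoters depended on the measure. By percentile of −log10 q the difference was 2.02 points for *Egr1*, 2.20 for *Ier3*, 4.33 for *Srf* and 4.76 for *Dusp1*, and for *Noct* it turned to 4.13. By percentile of the estimated pileup it was 0.50 for *Egr1* and 0.71 for *Srf*, and it turned to -0.60 for *Ier3*, -0.022 for *Dusp1*, 0.57 for *Maff* and 3.83 for *Noct*. By scaled log2 pileup it turned to -0.0071 for *Ier3*, 0.099 for *Maff* and 0.61 for *Noct*. With a width-weighted mean it turned to -0.0025 for *Ier2* and was -0.081 for *Maff*. In these regions the lists held different numbers of peaks, 2, 3, 3 and 2 at *Ier2* and 1, 1, 2 and 2 at *Maff*. The cause of these changes was not tested.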
